A study of Mus musculus with 12 samples.

Results

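Among 8 mouse liver libraries made after injection of an adeno-associated virus (AAV), 3 held high levels of Slc7a11 RNA and 5 did not, and the 8 were compared along that split. The split was chosen by a measured value, the Slc7a11 level of the libraries themselves: a library was placed on the high side at 20 or more Slc7a11 CPM (counts scaled to a common library total) and on the low side below that. The high side was control gRNA libraries 1 and 3 and Pdx1 gRNA library 4, and the low side was control gRNA libraries 2 and 4 and Pdx1 gRNA libraries 1, 2 and 3. These 8 are part of a series of 12 liver libraries of polyadenylated RNA, in 3 labelled groups of 4: PBS, control gRNA and Pdx1 gRNA. All mice were of the Rosa26-LSL-dCas9-p300 strain. It carries a transgene at Rosa26 for dCas9-p300, a Cas9 that no longer cuts DNA joined to the histone acetyltransferase p300, and the transgene stays silent until Cre deletes its stop signal. The DNA site that dCas9-p300 binds is set by a guide RNA (gRNA). The animals were about 8 weeks old when injected through the tail vein with PBS or with 1e+12 viral genomes of AAV.Cbh.gRNA per mouse, and livers were taken 2 weeks later. Where Cre came from is not given in the sources used here. Whether every library is a separate mouse is not stated in the labels, and every p-value below measures the spread between libraries. The high and low sides are no treatment groups, and adjusted p-values here rank how well genes follow the split. Slc7a11 itself was left out of every count.

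Slc7a11 encodes the transport subunit of a membrane antiporter that imports cystine in exchange for glutamate, and it works with the heavy chain Slc3a2. Imported cystine feeds the synthesis of glutathione, and the gene is a known target of the stress factors ATF4 and NRF2. Resting hepatocytes express it weakly and make much of their cysteine from methionine. H19, the first of the 3 genes given as markers of the split, is an imprinted long noncoding RNA that is abundant in fetal liver and shut down after birth. Insm1 encodes a zinc-finger transcription factor of neuroendocrine precursors, and Akr1b7 an aldo-keto reductase that reduces lipid aldehydes.

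The promoter of the gene that defined the split is shown first, for its stress motifs. Promoters of 4 genes that followed the split come next, picked after the search because each holds the antioxidant motif. Sequences are from RefSeq on build GRCm38.p6, from 250 bases before to 50 bases after the start, read 5′ to 3′ on the gene's strand. Capitals mark matches on either strand to 4 letter patterns: TGATGNAA (C/EBP-ATF element), TGACNNNGC (core of the antioxidant response element, the NRF2 motif), TGANTCA (AP-1) and CACGTG (E-box).
Slc7a11, chr3:50443564-50443863, minus strand: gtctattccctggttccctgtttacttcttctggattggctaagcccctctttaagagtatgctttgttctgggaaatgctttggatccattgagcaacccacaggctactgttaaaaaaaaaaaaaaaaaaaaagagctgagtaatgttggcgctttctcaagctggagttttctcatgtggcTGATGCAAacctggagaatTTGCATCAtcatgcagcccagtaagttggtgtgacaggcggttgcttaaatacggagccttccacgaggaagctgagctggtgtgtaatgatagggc
Krt20, chr11:99438104-99438403, minus strand: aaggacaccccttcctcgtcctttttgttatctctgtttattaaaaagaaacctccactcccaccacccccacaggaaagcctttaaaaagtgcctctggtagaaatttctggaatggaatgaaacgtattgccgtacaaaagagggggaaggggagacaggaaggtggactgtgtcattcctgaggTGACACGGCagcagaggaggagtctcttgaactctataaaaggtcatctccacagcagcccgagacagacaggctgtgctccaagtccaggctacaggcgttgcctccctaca
Ggt1, chr10:75571310-75571609, plus strand: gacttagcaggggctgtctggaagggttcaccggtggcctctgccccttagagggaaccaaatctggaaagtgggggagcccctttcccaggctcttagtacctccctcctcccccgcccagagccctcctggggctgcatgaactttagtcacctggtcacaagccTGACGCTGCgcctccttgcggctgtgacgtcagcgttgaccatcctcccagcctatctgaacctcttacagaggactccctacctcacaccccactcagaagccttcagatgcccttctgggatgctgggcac
Lhx1, chr11:84525485-84525784, minus strand: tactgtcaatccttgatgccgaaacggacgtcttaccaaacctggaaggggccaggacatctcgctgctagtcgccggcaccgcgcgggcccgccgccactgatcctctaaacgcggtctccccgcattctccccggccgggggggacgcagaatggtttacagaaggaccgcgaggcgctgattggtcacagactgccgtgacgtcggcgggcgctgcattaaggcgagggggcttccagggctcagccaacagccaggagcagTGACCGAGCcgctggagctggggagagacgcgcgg
G6pdx, chrX:74428831-74429130, minus strand: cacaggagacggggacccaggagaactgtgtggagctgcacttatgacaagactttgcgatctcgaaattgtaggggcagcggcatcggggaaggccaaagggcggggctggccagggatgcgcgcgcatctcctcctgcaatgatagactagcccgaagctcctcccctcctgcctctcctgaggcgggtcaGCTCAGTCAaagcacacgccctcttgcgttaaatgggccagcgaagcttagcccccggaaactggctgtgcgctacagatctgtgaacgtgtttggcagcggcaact
The Slc7a11 promoter held 2 C/EBP-ATF elements, which begin 66 and 47 bases before the start and lie on opposite strands, and no match to the other patterns. The antioxidant response element core lay 63 bases before the start in Krt20, 83 before it in this Ggt1 promoter and 57 before it in G6pdx, and 15 after it in Lhx1. The C/EBP-ATF element was in 3.97% of 32851 mouse promoters in the table, in 2.38% of the 14101 promoters of genes tested, in 1.66% of 664 promoters of genes called higher and in 2.44% of 901 of genes called lower. The antioxidant core was in 14.2% of promoters of genes tested, 16.1% of those called higher and 13.9% of those called lower. The E-box was in 9.58%, 12% and 10.9% of the same sets, and AP-1 in 5.39%, 5.72% and 6.55%. Among the 10 genes with the largest rises along the split, described below, 8 had promoters in the table, 11 in all. Of these 11, 5 held the antioxidant core, 3 of them promoters of Ggt1, and 0 held the C/EBP-ATF element. The Gldn promoter held AP-1, and those of Dlk1, Cacna1b, Kcnh2 and Tinag and the fourth of Ggt1 matched none of the patterns, as did that of Akr1b7. These letter matches are a description and show no binding.

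Slc7a11 counts were 1067 and 939 in the high control gRNA libraries and 2414 in the high Pdx1 gRNA library, which is 48.5, 43.9 and 146 CPM of the library total. The low control gRNA libraries had 89 and 142 counts (4.71 and 8.37 CPM). The low Pdx1 gRNA libraries had 3, 21 and 1 counts (0.166, 1.55 and 0.0705 CPM). The last library inside the threshold therefore stood at 43.9 CPM and the first outside it at 8.37. The PBS libraries had from 0.0789 to 0.254 CPM. Within the low side the control gRNA libraries lay above the 3 Pdx1 gRNA libraries, Pdx1 gRNA library 1 lay within the range of PBS, and Pdx1 gRNA library 3 lay just below it.

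The files bear on several checks of these libraries. Totals ran from 13531769 to 22008046 counts over the 8 virus libraries, and the deepest 2, both from the control gRNA group, were on the high side. Liver genes were abundant on both sides: Alb, serum albumin, had 35907 to 41182 CPM in the high and 49164 to 78166 CPM in the low libraries, and Hnf4a, the hepatocyte nuclear factor, 431 to 559 and 492 to 700 CPM. From here on CPM are on library sizes scaled by TMM. Pdx1, the target of the gRNA, had 1.34, 2.35 and 4.07 CPM in the low Pdx1 gRNA libraries and 12.9 CPM in the high one, against 0 in 3 control gRNA libraries and 0.111 CPM in control gRNA library 4. Its log2 difference along the split was 2.07 ± 0.63 (SE) and was not called (edgeR, adjusted p = 0.0650). Ep300, the gene of p300, had 60.4 CPM in Pdx1 gRNA library 4 and 35.5 to 44.3 CPM in the other 7, and was not called (edgeR, adjusted p = 0.116). All 8 virus libraries had a female pattern, with Xist at 695 to 1051 CPM and the Y-linked Ddx3y at 0.166 CPM or less on total counts, whereas PBS libraries 2 and 3 had 80.8 and 70.0 CPM of Ddx3y.

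Of 5 library measures, 2 separated the sides fully. The share of counts in the 20 most abundant genes was 17.2 to 18.9% in the high libraries and 20.6 to 22.5% in the low libraries, and the TMM factor was at least 1.14 against 0.935 to 1.07. For both, the exact two-sided permutation test over 56 assignments of 3 and 5 libraries gave its smallest possible p = 0.0179, or 0.0448 after Benjamini-Hochberg adjustment over the 5 measures. Total counts differed with exact p = 0.125, the mitochondrial share of counts (3.30 to 5.18% against 4.58 to 7.75%) with p = 0.143, and the number of genes detected (22148 to 23824 against 21267 to 22874) with p = 0.143. The part of these measures in the gene differences below was not tested.

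The 3 marker genes followed the split in both gRNA groups. H19 (chromosome 7, 142575529 to 142578143) had 3520 and 341 CPM in the high control gRNA libraries and 231 CPM in the high Pdx1 gRNA library. In the low libraries it had 7.23 and 4.48 CPM with the control gRNA and 1.29, 5.37 and 2.87 CPM with the Pdx1 gRNA. PBS libraries had 0.380 to 2.70 CPM. The sides did not overlap, and control gRNA library 1 stood an order of magnitude above the other high libraries. The log2 difference was 7.56 ± 1.09 (SE; edgeR quasi-likelihood test over the 8 libraries with the gRNA as covariate, Benjamini-Hochberg adjusted p = 0.0173).

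Insm1 (chromosome 2, 146221921 to 146225020) had 29.9, 5.27 and 33.0 CPM in control gRNA libraries 1 and 3 and Pdx1 gRNA library 4. The low libraries ran from 0.104 to 1.93 CPM and PBS from 0 to 0.287 CPM. The sides did not overlap, and control gRNA library 3 was the lowest of the high side. The log2 difference was 4.95 ± 0.89 (edgeR, adjusted p = 0.0251). The call was lost in limma-voom (adjusted p = 0.0597) and in 6 of the 8 edgeR fits with 1 library left out, those without control gRNA library 1 or 2 or any 1 Pdx1 gRNA library (adjusted p from 0.0503 to 0.270). Akr1b7 (chromosome 6, 34412334 to 34423142) had 437, 130 and 305 CPM in the same 3 libraries. It was already present in the low libraries, at 63.5 and 27.4 CPM with the control gRNA and 37.2, 25.4 and 32.8 CPM with the Pdx1 gRNA, while PBS had 0.103 to 3.81 CPM. Its log2 difference was 2.92 ± 0.46 (edgeR, adjusted p = 0.0183). Akr1b7 lost its call without control gRNA library 1 (edgeR, adjusted p = 0.0594) and without Pdx1 gRNA library 4 (0.243), and H19 without the latter (0.165). These 3 genes came with the definition of the split and were chosen with their values known.

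**Figure D1:**
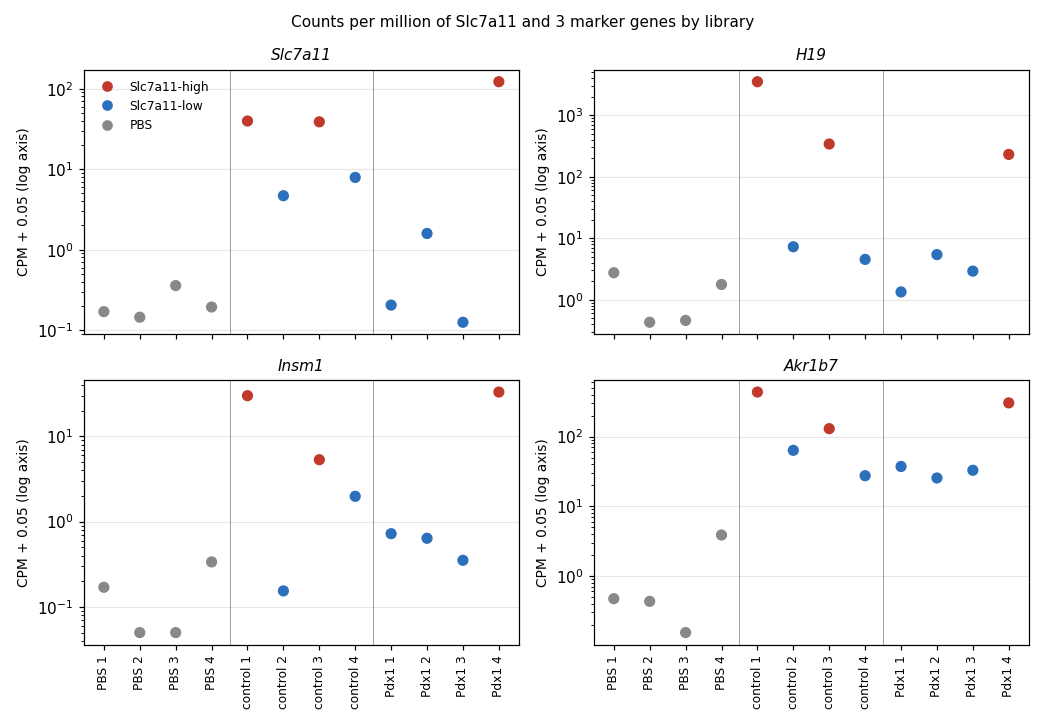
CPM plus 0.05 on a log axis for Slc7a11, H19, Insm1 and Akr1b7 in each of the 12 libraries, grouped as PBS, control gRNA and Pdx1 gRNA and coloured by side. Control gRNA libraries 1 and 3 and Pdx1 gRNA library 4 were above all others in each panel; for Slc7a11 this is how the sides were chosen.

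Over all genes, 15247 were tested besides Slc7a11. Of these, 750 were called higher (4.92%) and 960 lower (6.30%) in the high libraries at an adjusted p under 0.05, and 52 and 46 of them differed at least 4-fold. In 1312 genes (8.60%) all 3 high libraries lay above all 5 low ones, and in 1646 (10.8%) below. These counts rest on Pdx1 gRNA library 4 to a large degree: without it 4 genes (0.0262%) were called higher and 18 (0.118%) lower of 15272. The control gRNA libraries alone, 2 against 2, gave 5 and 8. Without control gRNA library 1, 263 and 359 were called, without control gRNA library 2, 400 and 592, and without Pdx1 gRNA library 1, 480 and 602. In a fit that let the difference vary with the gRNA, edgeR called 0 of 15247 genes for that variation, with 733 at an unadjusted p under 0.05. No other tool was run on it. Of the 84 named genes called, 10 were called in each of the 8 fits with 1 library left out, among them Slco1a1, Slc1a2, Tinag, Ggt1, Ugt2b37, Fabp1 and Hbb-bs. Another 45 lost the call without Pdx1 gRNA library 4 alone, and 29 with another library left out as well. Of the 26 gene lists below that held a call, 20 held none without Pdx1 gRNA library 4.

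**Figure D2:**
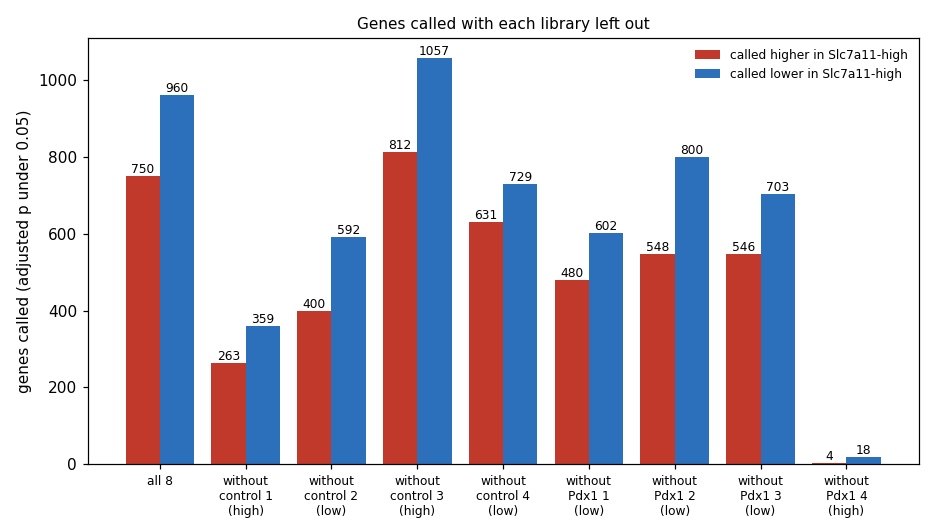
Bars give the number of genes called higher and lower in the Slc7a11-high libraries (edgeR, adjusted p under 0.05) with all 8 virus libraries and with each left out in turn. Counts ran from 4 to 812 higher and from 18 to 1057 lower, and the lowest pair was without Pdx1 gRNA library 4.

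Called genes were ranked where the sides did not overlap and the 8 libraries averaged 1 CPM or more. The 10 largest rises along the split were in Krt20, H19, Insm1, Gldn, Dlk1, Ggt1, Cacna1b, Lhx1, Kcnh2 and Tinag. Apart from H19, their means in the low libraries ran from 0.0111 (Krt20) to 0.753 CPM (Ggt1). These genes therefore reached the mean of 1 CPM only through the high libraries. Krt20, an intermediate filament protein of intestinal and urothelial epithelium, had 11.1, 2.60 and 1.06 CPM in the high libraries. It had 1 count over all 5 low libraries against 382 in the high ones, 449 times as many relative to the library totals (95% exact interval 80.2 to 17797, counting error only). Gldn, gliomedin of the node of Ranvier, had 2.75, 0.453 and 4.50 CPM against 0.0520 to 0.221 CPM. Dlk1, a fetal and imprinted Notch-family ligand, had 7.87, 0.577 and 0.506 CPM against 0 to 0.221 CPM. Its level was thus carried by control gRNA library 1. Dlk1 lost its call in 6 of the 7 fits with 1 library left out in which it was tested. Ggt1, the gamma-glutamyltransferase that breaks down extracellular glutathione and is a fetal liver enzyme, had 12.4, 7.46 and 16.2 CPM. In the low libraries Ggt1 had 1.25 and 1.77 CPM with the control gRNA and 0.155, 0.368 and 0.226 CPM with the Pdx1 gRNA, and PBS had at most 0.0950 CPM. Its log2 difference was 3.99 ± 0.61 (edgeR, adjusted p = 0.0141).

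The other large rises were in genes at a few CPM on the high side. Cacna1b, a neuronal calcium channel subunit, had 6.38, 1.11 and 2.17 CPM in the high and 0.103 to 0.294 CPM in the low libraries. Kcnh2, a potassium channel, had 2.45, 1.07 and 3.74 against 0.0517 to 0.553 CPM. Lhx1, a homeobox gene of the embryonic kidney, had 6.38, 1.98 and 4.85 against 0 to 0.829 CPM, and no PBS library had a count. Tinag, a basement membrane protein of kidney tubules, was the most even of the 10, with 3.64, 3.87 and 2.73 CPM against 0.103 to 0.608 CPM. Its log2 difference was 3.44 ± 0.35 (edgeR, adjusted p = 0.00256). All 10 were low-abundance RNAs in PBS liver, at 2.70 CPM or less in each PBS library.

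The 10 largest falls were in Sult3a1, Cyp2c69, Slco1a1, Mup22, Sult2a8, Ugt2b37, Eci3, Ces3b, Cyp2c40 and Slc22a26. Slco1a1, an organic anion transporter of the hepatocyte surface, had 2.93 and 5.11 CPM in the high control gRNA libraries and 3.49 CPM in the high Pdx1 gRNA library. The low libraries had 53.8 and 34.5 CPM with the control gRNA and 110, 107 and 112 CPM with the Pdx1 gRNA. PBS libraries had 212, 715, 465 and 96.7 CPM. The high libraries were below all others, and the log2 difference was -4.03 ± 0.38 (edgeR, adjusted p = 0.00606). Sult2a8, a bile acid sulfotransferase, had 5.72, 16.7 and 7.79 CPM against 71.0 to 155 CPM, and PBS had 234 to 970 CPM. Ces3b, a liver carboxylesterase, had 3.56, 15.0 and 6.88 CPM against 48.1 to 153 CPM, and PBS had 214 to 677 CPM. Its call (edgeR, adjusted p = 0.0461) was lost in 7 of the 8 fits with 1 library left out. Mup22, a major urinary protein, had 0.297, 4.70 and 0.455 CPM against 16.8 to 23.6 CPM. Its adjusted p in edgeR was 0.0499, or 0.0517 with DESeq2 size factors, and its call was lost in 7 of the 8 fits with 1 library left out, all but that without control gRNA library 3.

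Several of the other large falls differed widely among the PBS libraries. Cyp2c69, a cytochrome P450, had 7.24, 6.43 and 24.8 CPM in the high and 130 to 556 CPM in the low libraries, with 900 and 1318 CPM in PBS libraries 1 and 4 and 2.19 and 2.06 CPM in PBS libraries 2 and 3, the pair with Ddx3y. Cyp2c40 had 11.3, 32.0 and 33.4 against 154 to 307 CPM, and Slc22a26, an organic anion transporter, 5.75, 6.47 and 5.61 against 30.4 to 85.0 CPM. Sult3a1, a sulfotransferase, had 0.0742, 0.0824 and 0.0506 CPM, below all low libraries, the highest of which had 22.3 CPM. Its call was lost in 6 of the 8 fits with 1 library left out. Cyp2c40, Slc22a26 and Sult3a1 had at most 1.62 CPM in PBS libraries 2 and 3 and at least 99.5 CPM in PBS libraries 1 and 4. Ugt2b37, a glucuronosyltransferase, had 0.186, 0.412 and 0.910 against 3.21 to 5.83 CPM. Eci3, an enoyl-CoA isomerase, had 0.148, 0.865 and 0.455 against 0.882 to 6.11 CPM, and lost its call in 5 of those 8 fits. Single members of the Mup, Cyp2c, Sult and Ugt families are uncertain, since near-identical copies can share reads.

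**Figure D3:**
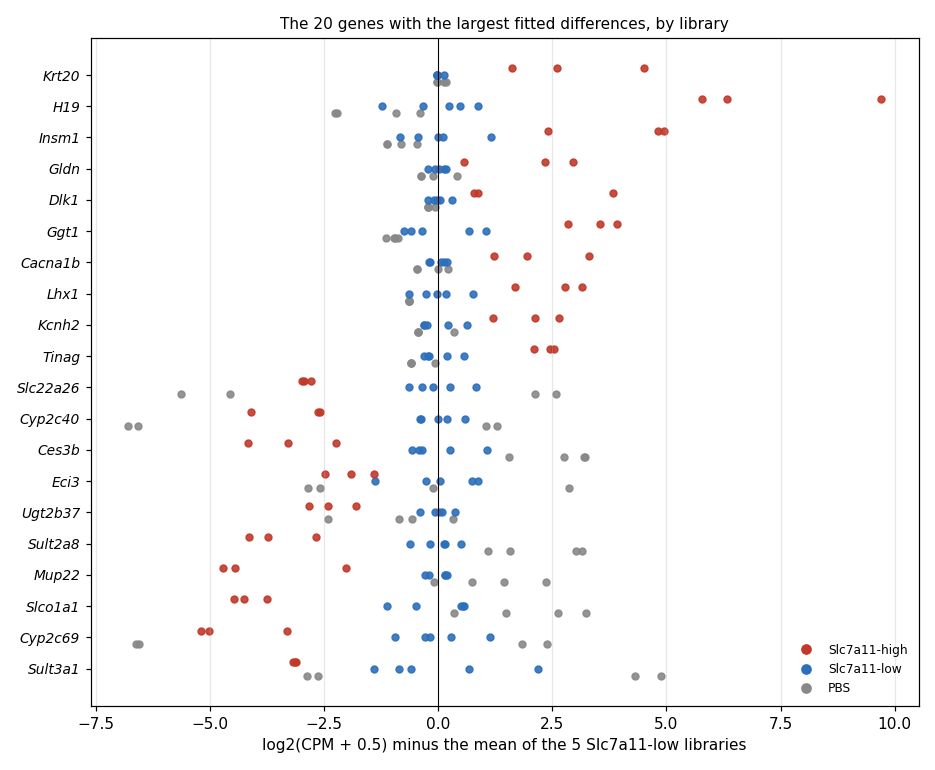
Each point is a library; the x axis gives log2(CPM + 0.5) minus the mean of the 5 Slc7a11-low libraries for the 10 largest rises and 10 largest falls by fitted log2 fold change. The 3 high libraries lie on one side of all 5 low libraries for each gene, which the choice of genes required, and all 4 PBS libraries lie above the low ones for genes such as Ces3b and Sult2a8.

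Slc1a2, a glutamate transporter of pericentral hepatocytes, followed the split most closely of the genes named by rule. It had 8.35, 11.7 and 10.1 CPM in the high libraries and 68.1, 50.4, 73.3, 60.3 and 51.2 CPM in the low ones, a log2 difference of -2.58 ± 0.18 (edgeR, adjusted p = 0.000556). PBS libraries had 55.6 to 247 CPM. Trdc, annotated as the constant region of the T-cell receptor delta chain and named here after its values were seen, was as close in the other direction. It had 16.4, 14.3 and 13.9 CPM against 1.55 to 3.39 CPM in the low and 0 to 0.540 CPM in the PBS libraries (log2 difference 2.82 ± 0.22, edgeR adjusted p = 0.000556). Cd3e, of the T-cell receptor complex, was not called: it had 0.860 to 1.69 CPM in the high and 0.302 to 1.66 CPM in the low libraries, and Tcrg-C1 and Tcrg-C4, constant regions of the gamma chain, had at most 0.468 CPM in any virus library, too little to be tested. Counting ignored strand, so reads from a transcript on the other strand cannot be told apart.

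Genes chosen in the control gRNA libraries were then read in the Pdx1 gRNA libraries. These sets share no library, but Slc7a11 set the sides in both. The genes on offer had first passed the filter on the mean over all 8 libraries, Pdx1 gRNA library 4 included. In the control gRNA libraries 27 genes were higher in both high libraries than in both low ones. Their mean over the high libraries was also at least 4-fold that over the low ones, on the CPM + 0.5 scale. Of these, 25 (92.6%) were also higher in Pdx1 gRNA library 4 than in the 3 other Pdx1 gRNA libraries and 0 were lower, where 33.7% of all genes tested were higher. They included Igf2, Afp, Meg3, Rian, Dlk1, Lpl, Lcn2 and Ggt1. The markers H19, Insm1 and Akr1b7 were also among them, and their place in both gRNA groups was known beforehand. Of 33 genes chosen as lower, 22 (66.7%) were lower in Pdx1 gRNA library 4 and 1, Cebpe, was higher, against 34.9% lower over all genes. The 11 that did not repeat included Mup1, Mup9, Mup15 and Mup17, Cyp17a1, Cyp8b1 and Eno1b. The size also varied: the log2 ratio of H19 was 8.25 in the control gRNA and 5.98 in the Pdx1 gRNA libraries, that of Igf2 7.91 and 2.75, that of Ggt1 2.38 and 4.48, and that of Slco1a1 -3.30 and -4.79.

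**Figure D4:**
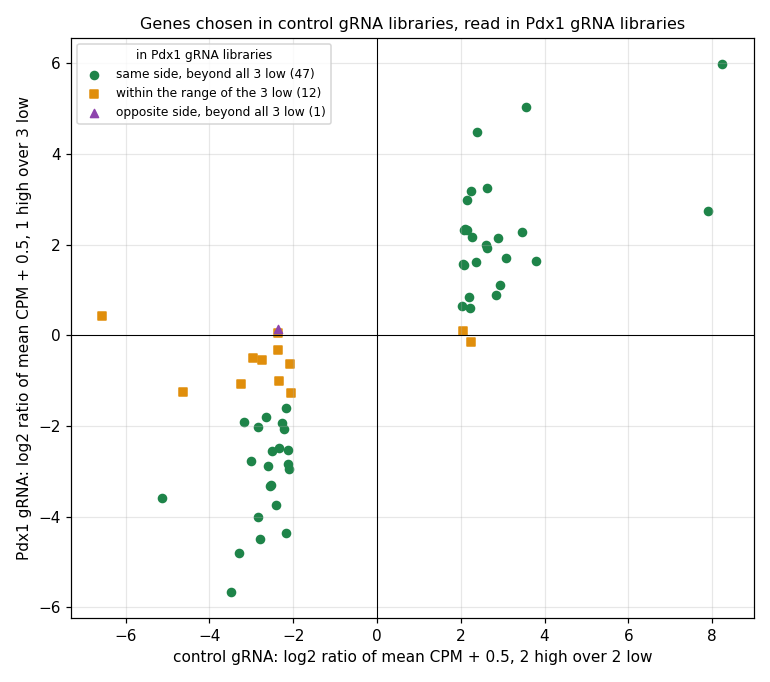
Each point is 1 of the 60 genes chosen in the control gRNA libraries; the x axis gives the log2 ratio of mean CPM + 0.5 there (2 high over 2 low) and the y axis the same in the Pdx1 gRNA libraries (1 high over 3 low). The choice fixes the x values beyond 2 in size, 47 genes lay beyond all 3 low Pdx1 gRNA libraries on the same side, 12 within their range and 1 on the opposite side.

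The high libraries were unlike one another in strength. Of the 750 genes called higher, 481 were highest in Pdx1 gRNA library 4, 228 in control gRNA library 1 and 41 in control gRNA library 3. Of the 960 called lower, 577 were lowest in Pdx1 gRNA library 4, 330 in control gRNA library 1 and 53 in control gRNA library 3. Over all genes tested the highest of the 3 was Pdx1 gRNA library 4 in 4929, control gRNA library 1 in 5008 and control gRNA library 3 in 5310. The lowest was Pdx1 gRNA library 4 in 6208, control gRNA library 1 in 4747 and control gRNA library 3 in 4292. Control gRNA library 3 was thus the mildest of the 3 for called genes in both directions.

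Partners of Slc7a11 in cystine use were mixed. Of 24 tested genes of cystine import, glutathione and ferroptosis defence, 3 were called higher and 2 lower, with a median log2 difference of 0.03 beside 0.00 for all genes. The gene lists here were written with earlier results of these data known. The count of each list stands beside 4.92% of all genes called higher and 6.30% called lower. Slc3a2, the heavy chain of the antiporter, had 273 and 280 CPM in the high control gRNA libraries and 443 CPM in the high Pdx1 gRNA library. It had 190 and 181 CPM in the low control gRNA and 129, 181 and 123 CPM in the low Pdx1 gRNA libraries (log2 difference 1.05 ± 0.22, edgeR adjusted p = 0.0209). Ggt1 and Acsl4, which loads membranes with polyunsaturated fatty acids, were the others called higher. Chac2, which degrades glutathione, was called lower, with 18.0, 20.9 and 15.7 CPM against 26.2 to 37.3 CPM. Mat1a, the hepatocyte enzyme that opens the methionine route, was also called lower, with 547, 662 and 573 CPM against 967 to 1676 CPM. The subunits of glutamate-cysteine ligase overlapped between the sides: Gclc had 641 to 1198 CPM in the high and 545 to 1087 CPM in the low libraries, and Gclm 207 to 257 against 237 to 300 CPM. Gpx4, the peroxidase that restrains ferroptosis, had 390 to 448 against 290 to 457 CPM.

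The ATF4 arm of the stress response gave calls in the upward direction in the main fit. Of 31 tested ATF4 targets, 8 were called higher and 0 lower (median log2 difference 0.42), beside 4.92% and 6.30% of all genes. DESeq2 called 10 higher and 2 lower, and edgeR with no filter on low counts 17 and 2 of 32. That no-filter fit gave Insm1 an adjusted p of 1.50e-117 (edgeR) from 8 libraries, against 0.0251 in the main fit. Such p-values are too small to be credible, so the added calls of the no-filter fit are not relied on. Psat1, of serine synthesis, had 71.0, 31.6 and 50.4 CPM against 6.62 to 14.0 CPM in the low and 0.411 to 1.68 CPM in the PBS libraries (log2 difference 2.14 ± 0.34, edgeR adjusted p = 0.0160). Asns, asparagine synthetase, had 19.4, 5.60 and 18.1 against 3.10 to 4.60 CPM. Aldh18a1, of proline synthesis, had 19.6, 14.5 and 18.4 against 2.64 to 7.68 CPM. Slc7a5, the large neutral amino acid transporter, Psph, Aldh1l2, Ero1l and Atf4 itself made up the 8. Ero1l, an oxidase of the endoplasmic reticulum, had 57.4, 39.7 and 80.2 against 18.1 to 26.2 CPM. Not called were Ddit3 (log2 difference 0.37), Trib3 (0.29), Chac1 (-0.18), Fgf21 (-1.59) and Gdf15 (-0.82). Gdf15 had 17.4 to 34.6 CPM in the high and 36.1 to 53.1 CPM in the low libraries. The unfolded protein response, a neighbouring arm, had 0 of 20 genes called higher and 1, Herpud1, lower. Without Pdx1 gRNA library 4 no ATF4 target was called.

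NRF2 targets gave 3 genes called higher and 0 lower of 24 tested (median log2 difference 0.37). The 3 were G6pdx and Pgd, of the pentose phosphate pathway, and Abcc4, an efflux pump. G6pdx had 26.7, 19.3 and 24.6 CPM against 5.51 to 13.2 CPM (log2 difference 1.46 ± 0.22, edgeR adjusted p = 0.00959). Abcc4 had 337, 324 and 539 CPM in the high and 97.5 to 200 CPM in the low libraries, whereas PBS libraries had 2.94 to 18.0 CPM. The commonly read targets Nqo1, Srxn1 and Gsta1 were not called. Nqo1 had 47.7 and 85.6 CPM in the high control gRNA libraries and 34.7 and 69.8 CPM in the low ones, which overlapped, and 62.1 CPM in Pdx1 gRNA library 4 above 21.8 to 26.2 CPM in the other 3. Cbr3, a carbonyl reductase, had 16.5 and 145 CPM in the high and 20.3 and 96.8 CPM in the low control gRNA libraries, and 75.4 CPM against 2.95 to 13.4 CPM with the Pdx1 gRNA. The list's median within the control gRNA libraries was 0.20 and within the Pdx1 gRNA libraries 0.75 on the log2(CPM + 0.5) scale. That difference was not tested for the list.

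Aldo-keto reductases went both ways. Of 15 tested, 5 were called higher and 4 lower, and Akr1b7, 1 of the 5, came with the split. The Akr1b genes Akr1b3, Akr1b7, Akr1b8 and Akr1b10 and the progesterone reductase Akr1c18 were higher. Akr1b3, aldose reductase, had 68.5, 75.8 and 111 CPM against 24.9 to 40.8 CPM, and 5.94 to 11.1 CPM in PBS (log2 difference 1.45 ± 0.18, edgeR adjusted p = 0.00779). Akr1c18 had 6.01, 5.85 and 5.51 CPM against 0.441 to 1.43 CPM. The lower ones were Akr1c6, Akr1c12, Akr1c14 and Akr1c20, of the hepatocyte steroid-reducing cluster. Akr1c14 had 93.1, 154 and 83.4 against 201 to 279 CPM, and Akr1c6 242, 502 and 295 against 624 to 801 CPM.

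Fetal and tumour-associated liver genes held the largest share of calls in the upward direction among the lists. Of 23 tested, 12 were called higher and 0 lower, with a median log2 difference of 1.30. They were H19, which came with the split, Dlk1, Igf2bp3, Golm1, Scd2, Tspan8, Bex1, Sox4, Cd24a, Igdcc4, Tff3 and Lcn2. Sox4, a transcription factor of progenitor cells, had 17.0, 8.36 and 11.7 CPM against 1.89 to 5.14 CPM (log2 difference 2.09 ± 0.31, edgeR adjusted p = 0.00899). Golm1, a Golgi protein of diseased liver, had 35.7, 31.8 and 27.3 against 9.28 to 17.3 CPM. Lcn2, lipocalin 2, had 170, 78.1 and 48.7 against 5.88 to 35.4 CPM. Igf2, the fetal growth factor beside H19, was named after its values were seen. It had 712 CPM in control gRNA library 1, 3.79 and 5.87 CPM in the other high libraries and 0.377 to 1.14 CPM in the low ones, and was not called (log2 difference 7.31 ± 2.35, edgeR adjusted p = 0.110). Afp, alpha-fetoprotein, had 195, 20.8 and 36.8 CPM against 5.84 to 11 CPM and was not called either (3.07 ± 0.79, adjusted p = 0.0665). Gpc3, a marker of liver tumours, overlapped at 0.506 to 3.01 against 0.515 to 5.69 CPM. The list summed to 4936 CPM in control gRNA library 1, 572 CPM in the lowest high library and 92.8 to 246 CPM in the low libraries. H19 (3520 CPM) and Igf2 (712 CPM) made up most of the sum in control gRNA library 1. It therefore speaks for these genes and not for the list as a whole. No member was called without Pdx1 gRNA library 4, and 9 of 22 were without control gRNA library 1.

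Imprinted genes gave 6 called higher and 1 lower of 22 tested (median log2 difference 0.73). The 3 noncoding RNAs of the Dlk1 cluster on chromosome 12 were higher. Rian had 57.3, 25.5 and 9.66 CPM against 2.04 to 6.02 CPM, and Meg3 had 156, 61.7 and 22.2 against 9.04 to 17.8 CPM. Mirg had 3.23, 1.36 and 1.06 against 0.151 to 0.662 CPM. Peg3, Grb10 and Igf2r were also higher. Grb10, an inhibitor of insulin and IGF signalling, had 37.9, 17.4 and 30.4 CPM against 7.72 to 10.2 CPM (log2 difference 1.73 ± 0.24, edgeR adjusted p = 0.00821). Igf2r, the receptor that clears Igf2, had 145, 113 and 229 against 66.2 to 92.5 CPM. Kcnq1ot1 was called lower. H19, Igf2 and Dlk1 were kept in the fetal list and were not counted again.

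Insm1 was the only neuroendocrine gene called among those abundant enough to be tested. Of 23 neuroendocrine and endocrine precursor genes, 6 were tested and Insm1 was the 1 called. Insm1 came with the split, so its call is no separate evidence about the list. With no filter on low counts edgeR called 2 of 21 higher, in the fit whose p-values are not relied on. Ddc had 63.3, 98.4 and 80.8 CPM in the high and 29.6 to 70.5 CPM in the low libraries (edgeR, adjusted p = 0.141). Snap25 had 0.816 to 1.06 CPM in the high and 1.04 to 1.99 CPM in the low libraries. Chga, Chgb and Neurod1 did not reach the mean of 0.5 CPM needed for the test.

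Genes of mitosis and replication gave 0 calls, whereas p53 targets gave calls both ways. Of 21 mitotic genes edgeR called 0, with 8 at an unadjusted p under 0.05. DESeq2 called 3 and limma-voom 1 higher, and edgeR with no filter on low counts, whose p-values are not relied on, 11. All 21 had positive log2 differences, with a median of 0.54. Within the control gRNA libraries their median difference was 0.85 and within the Pdx1 gRNA libraries 0.07. Mki67, a marker of cycling cells, had 38.6 and 31.9 CPM against 15.5 and 23.8 CPM with the control gRNA, and 19.4 CPM against 15.4 to 29.3 CPM with the Pdx1 gRNA. Of 22 replication genes edgeR called 0, with 6 at an unadjusted p under 0.05. DESeq2 called 3, limma-voom 1 and edgeR with no filter, under the same limit, 4 lower. Of the 22, 19 had negative differences (median -0.26). Of 24 p53 targets, 6 were called higher and 3 lower (median 0.06), beside 4.92% and 6.30% of all genes. Tnfrsf10b, a death receptor, had 15.0, 19.6 and 25.4 against 8.60 to 14.1 CPM, and Cdkn1a, the p21 cell cycle inhibitor, overlapped at 77.3 to 136 against 39.1 to 92.9 CPM. Among EGF-family genes Areg, amphiregulin, was called higher although its sides overlapped, at 60.0, 66.1 and 79.0 CPM against 40.3 to 61.5 CPM, while PBS had at most 0.420 CPM. Its adjusted p was 0.0482 in edgeR and 0.0502 in limma-voom, and the call was lost in 6 of the 8 edgeR fits with 1 library left out, those without control gRNA library 1, 2 or 3 or Pdx1 gRNA library 1, 3 or 4.

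Among the secreted and identity genes of hepatocytes the calls were all in the downward direction. Of 26 secreted and identity genes, 10 were called lower and 0 higher (median log2 difference -0.57). Apoa2, an apolipoprotein of HDL, had 1597, 3039 and 1262 CPM against 4782 to 6014 CPM, and Apoc3 712, 1106 and 685 against 1473 to 2461 CPM. The nuclear receptors Nr1h4, which senses bile acids, Nr1i3, which senses foreign compounds, and Ppara were called lower. Nr1h4 had 64.7, 79.2 and 68.2 against 126 to 212 CPM (log2 difference -1.08 ± 0.17, edgeR adjusted p = 0.00959). Alb, Ttr and the hepatocyte factors Hnf4a and Foxa2 were not called, and Hnf4a had a log2 difference of -0.13. In bulk tissue fewer cells of a type and less RNA per cell cannot be told apart.

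Amino acid breakdown gave 8 of 22 genes called lower and 0 higher (median -0.51). Otc, of the urea cycle, had 123, 199 and 90.8 CPM against 254 to 346 CPM, and Cps1, its first enzyme, was not called, at 2170 to 2907 against 1769 to 3019 CPM. Prodh, which degrades proline, had 55.1, 88.4 and 59.0 against 96.3 to 151 CPM. Cytochrome P450 and bile acid genes gave 12 called lower and 1 higher of 27 (median -1.06). Cyp2e1, the ethanol-oxidising P450, had 444, 899 and 535 against 1410 to 2421 CPM. Cyp7a1, the rate-limiting enzyme of bile acid synthesis, overlapped at 82.3 to 181 against 50.9 to 264 CPM. Cyp2b10, a target of Nr1i3, was the 1 called higher, at 30.7, 41.0 and 54.3 against 23.8 to 36.2 CPM. Of 19 pericentral and Wnt target genes 7 were called lower and 0 higher (median -0.60). Glul, glutamine synthetase of the cells around the central vein, had 228, 404 and 390 against 610 to 1008 CPM, and Notum 18.4, 26.9 and 18.0 against 42.0 to 51.2 CPM. Axin2 and Lgr5, also Wnt targets, were not called, with log2 differences of -0.06 and 0.46.

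Cholesterol synthesis held the largest share of calls in the downward direction among the lists. Of 20 genes, 17 were called lower and 0 higher, with a median log2 difference of -1.04. Insig1, which retains the sterol-sensing complex in the endoplasmic reticulum, had 74.4 and 114 CPM in the high and 200 and 309 CPM in the low control gRNA libraries. With the Pdx1 gRNA it had 90.1 CPM in the high library and 281, 297 and 388 CPM in the low ones, and PBS had 317 to 613 CPM (log2 difference -1.60 ± 0.22, edgeR adjusted p = 0.00779). The high libraries were below all others. Fdps, farnesyl diphosphate synthase, had 1.97, 5.36 and 3.54 against 8.84 to 20.4 CPM, and Sqle, squalene epoxidase, 45.3, 70.6 and 79.6 against 90.2 to 162 CPM. Among the 3 not called, Idi1 had a log2 difference of -0.97 and overlapped at 11.1 to 26.0 against 20.3 to 51.7 CPM. Without Pdx1 gRNA library 4, 1 of the 20 was called lower.

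Fatty acid synthesis gave 7 of 16 genes called lower and 0 higher (median -0.99). Fasn, fatty acid synthase, had 80.8, 132 and 126 CPM against 158 to 693 CPM, and Srebf1, its main activator, 84.2, 117 and 91.7 against 149 to 350 CPM. Scd1 overlapped at 773 to 1613 against 486 to 3178 CPM. Of 17 genes of glucose and glycogen handling, 6 were called lower and 0 higher (median -0.28). Igf1, the main hormone the liver secretes under growth hormone, was 1 of the 6 and had 217, 267 and 198 against 412 to 608 CPM. Of 16 glycolytic genes of growing cells, 3 were called higher and 1 lower (median 0.32); Aldoa had 414, 313 and 395 against 193 to 270 CPM. Of 21 genes of PPAR alpha and fatty acid oxidation, 4 were called lower and 0 higher, among them Fabp1, at 798, 910 and 764 against 2238 to 2919 CPM. Acute phase genes gave 5 called lower and 1 higher of 20 (median -0.50), and the higher one was Lcn2. Immediate early genes gave 0 called higher and 1 lower of 15, interferon-stimulated genes 3 and 1 of 26, and p300 and related acetyltransferase and bromodomain genes 1 and 0 of 15.

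**Figure D5:**
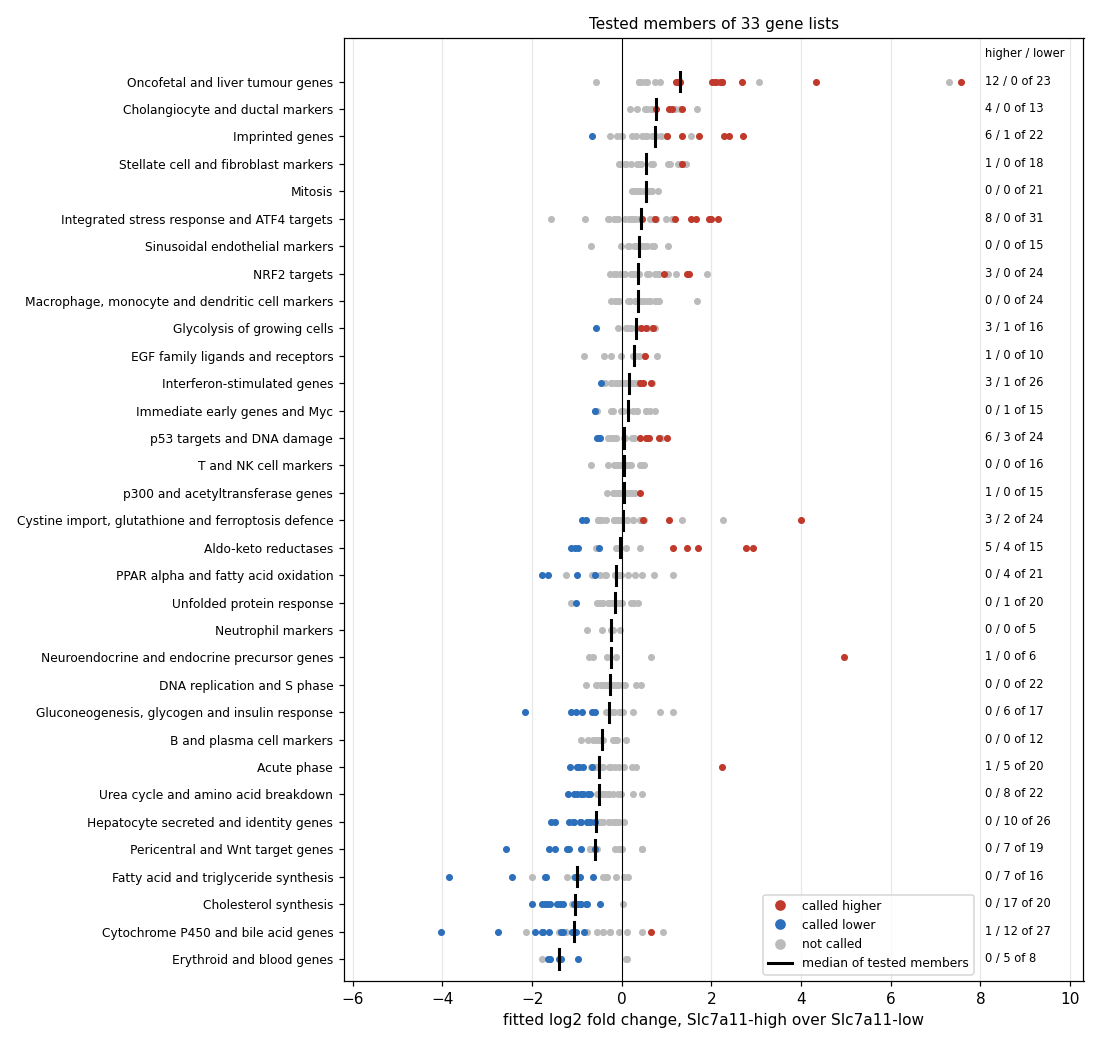
Fitted log2 fold change, high over low, of the tested members of 33 gene lists, with the median of each list as a black bar and the number called higher and lower at the right. Lists run from the fetal and tumour-associated genes (median 1.30) to the blood genes (median -1.39), and the background is 4.92% of genes called higher and 6.30% lower.

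Markers of other cell types were read over the same split. T and NK cell genes (16 tested), B and plasma cell genes (12), macrophage and dendritic cell genes (24), neutrophil genes (5) and sinusoidal endothelial genes (15) gave 0 calls in the main edgeR fit. At an unadjusted p under 0.05 there were 2 macrophage and 4 endothelial genes and 0 of the other 3 types. DESeq2 called 2 macrophage and 2 endothelial genes higher and limma-voom 1 macrophage gene, and neither called any of the other 3 types. With no filter on low counts edgeR called 11 macrophage and 6 endothelial genes higher and again 0 of the other 3 types. The p-values of that no-filter fit are not credible, as said above, and these calls are not relied on. Without robust estimation, or without the gRNA covariate, edgeR called 1 macrophage gene higher. With the replicate number as a block it called 1 endothelial gene higher. Their summed levels overlapped: T and NK genes ran from 19.7 to 36.0 CPM in the high and from 8.75 to 44.0 CPM in the low libraries, and macrophage genes from 847 to 1169 and from 346 to 1213 CPM. Stellate cell and fibroblast genes gave 1 called higher, Lox, of 18 (median 0.54), with sums of 328 to 904 CPM in the high, 164 to 379 CPM in the low and 311 to 563 CPM in the PBS libraries. Col1a1 had 154 CPM in control gRNA library 1, 43.9 and 37.6 CPM in the other high libraries and 7.84 to 54.2 CPM in the low ones.

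Cholangiocyte genes gave 4 called higher and 0 lower of 13 (median 0.76): Muc1, Cdh1, Krt23 and St14. These calls were fragile. None of the 13 was called without control gRNA library 2 or 4 or Pdx1 gRNA library 4, or over all 12 libraries. Without control gRNA library 1 edgeR called 1, while limma-voom called 2 and DESeq2 7 with all 8 libraries. Their sums were 239 to 597 CPM in the high, 126 to 188 CPM in the low and 82.8 to 189 CPM in the PBS libraries. The defining keratin Krt19 was not called, at 1.11 to 6.64 against 0.830 to 3.26 CPM. Red cell and blood genes went the other way, with 5 of 8 called lower and 0 higher (median -1.39). Hbb-bs, a beta globin, had 23.1, 30.8 and 34.6 CPM against 71.3 to 91.1 CPM in the low and 63.7 to 203 CPM in the PBS libraries (log2 difference -1.41 ± 0.15, edgeR adjusted p = 0.00256). The list summed to 67.4 to 87.9 CPM in the high, 179 to 219 CPM in the low and 329 to 467 CPM in the PBS libraries. Without Pdx1 gRNA library 4, 4 of the 8 were called lower. The part of cholangiocyte, fibroblast and blood RNA in the differences above was not tested.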

How the data were processed

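Polyadenylated RNA of 12 livers was analysed from 1 deposited file per library. The values are whole-number fragment counts per gene, which the authors made with featureCounts 1.4.6-p4 on GENCODE M13, per the file headers, on paired ends and without regard to strand. Per the submitters' processing notes the reads passed through Trimmomatic 0.32 and STAR 2.4.1a, and the builds were GRCm38 and mm10. Of 50600 genes, 50376 took a symbol by gene ID from a later GENCODE release. No 2 libraries were copies (chi-square per degree of freedom 19.3 to 300 over 66 pairs).

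The split, its members, the marker genes and the 33 gene lists were chosen with earlier results of these data known. Genes that averaged 0.5 CPM or more over the 8 virus libraries were fitted with edgeR 4.0.16 in R 4.3.3 (quasi-likelihood, robust, two-sided, TMM, gRNA as covariate). Genes were called at a Benjamini-Hochberg adjusted p under 0.05 over all genes tested. SEs are on the log2 scale, and displayed CPM use TMM over all 12 libraries. Named genes were Slc7a11, H19, Insm1, Akr1b7, Pdx1, the 10 largest rises and 10 largest falls among called genes (mean of at least 1 CPM, sides fully separated, no predicted-gene, clone or pseudogene name), and up to 3 members per list with the smallest p, 119 genes in all. Other list members are given as examples. Some members are counted in their lists but not reported here by name. Igf2, Afp, Trdc and Foxd3 were singled out after their values were seen. On simulated data of 15248 genes 60 of 100 genes given a 2-fold change were called, 91 of 100 given a 4-fold change, and 10 genes given none. The simulation shifted all 3 high libraries equally and gave the gRNA no effect. The real high libraries were uneven, so these rates hold for that simpler setting only. Library measures were tested by exact permutation. Alternatives were other scaling factors, filters and tests (DESeq2 1.42.0, limma-voom 3.58.1), other covariates and samples, and each library left out. Replicate numbers were not used as pairs. Depth is 13531769 or more counts per virus library, and counting intervals cover counting error only.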

Additional observations from a re-analysis of the deposited data

Results flagged for a closer look

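Single libraries were set against the rest of their side for the 119 named genes, in the 5 Slc7a11-low libraries and in the 4 PBS libraries, on the log2(CPM + 0.5) scale. The labelled gRNA groups were not checked this way, since the split divides them. A library was noted where its gap to the next exceeded the 95% critical value of Dixon's ratio, which chance exceeds in about 1 in 20 groups. This gave 23 of 238 groups, 8 among the low and 15 among the PBS libraries, and PBS library 1 accounts for 10.

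Among the low libraries, control gRNA library 4 was the highest for Krt20, with 0.0553 CPM (a single count), for Sox4 with 5.14 CPM and for Acta2 with 7.29 CPM. Control gRNA library 2 was the highest for Hba-a1, with 79.3 CPM, and for Brd3, with 95.6 CPM. Pdx1 gRNA library 3 was the highest for Nr1h4, with 212 CPM. Pdx1 gRNA library 1 was the lowest for Cyp4a10, with 156 CPM, and Pdx1 gRNA library 2 the lowest for Stat2, with 115 CPM.

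Among the PBS libraries, library 1 was the highest for Dlk1 (0.0600 CPM, a single count), Kcnh2 (0.360 CPM), Peg3 (106 CPM), Notum (64.5 CPM) and Ltf (1.98 CPM). It was the lowest for Akr1c20 (71.7 CPM), Slc1a2 (55.6 CPM), Pgk1 (102 CPM), Kat7 (21.0 CPM) and Ncoa2 (43.9 CPM). PBS library 4 was the highest for Tinag (0.216 CPM), Abcc4 (18.0 CPM), Sox4 (4.10 CPM) and Top2a (9.20 CPM), and PBS library 3 for Srebf1 (943 CPM). The PBS libraries enter neither the split nor its fit.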

How the results depend on the processing

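The counts of called genes depended on the libraries more than on the scaling or the test. Against 750 higher and 960 lower, no filter gave 1634 and 1499 of 29329 genes, DESeq2 called 1127 higher, and no gRNA covariate gave 488 higher. The no-filter calls are not relied on, since that fit gave p-values not credible for 8 libraries (Akr1b7, edgeR adjusted p = 3.36e-104). A fit over all 12 libraries gave 87 and 105, and the control gRNA libraries alone gave 5 and 8. With the replicate number as a block beside the gRNA, 460 were called higher and 768 lower. Deviations from the gRNA group mean correlated at -0.20, 0.08, -0.38 and -0.49 between same-numbered libraries. For numbers 1, 3 and 4 a high library stood opposite a low one. These values therefore cannot show whether the numbers pair the libraries. With 1 library left out, counts ran from 4 to 812 higher and from 18 to 1057 lower, the lowest without Pdx1 gRNA library 4 and the highest without control gRNA library 3. A fit without a library has fewer samples. The cause of the other changes was not tested.

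Of the 118 named genes besides Slc7a11, 84 were called, and all 1591 of their values under the alternatives that could be fitted kept their direction, though not their call. Of the 84, 74 were not called without Pdx1 gRNA library 4. Of the 118, the call was lost for 79 in the control gRNA libraries alone, 46 over all 12 libraries, 14 with the replicate block, 9 without the gRNA covariate, 7 with limma-voom, 2 without robust estimation, 1 (Mup22) with DESeq2 size factors and 0 with upper-quartile factors. With the block H19 had an adjusted p of 0.0709 and Akr1b7 of 0.0977. Among 644 values of genes not called, 9 reversed. Without the gRNA covariate Ngp came to 0.06, S100a9 to 0.04 and Ltf to 0.22. With the replicate block Pdx1 came to -1.0, S100a9 to 0.15 and Ltf to 0.81. With 1 library left out Ltf ran from -0.44 to 0.05 (0.04 without Pdx1 gRNA library 2), and Pdx1 from -3.22, without Pdx1 gRNA library 4, to 2.50.

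At a mean of at least 5 CPM, 100% of genes chosen higher in the control gRNA libraries repeated with the Pdx1 gRNA (14 of 14). Of those chosen lower 78.3% repeated (18 of 23), beside 37.1% higher and 35.7% lower over all genes. At a 2-fold choice 82.9% of genes chosen higher (194 of 234) and 82.3% of those chosen lower (191 of 232) repeated. All genes gave 33.7% and 34.9% there. On total counts the shares were 94.1% and 62.1%, beside 52.0% and 20% of all genes. List medians moved by at most 0.02 between scalings. Depth limits genes at a few counts, such as Krt20 and Dlk1 on the low side.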

Other observations

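Foxd3, a transcription factor gene of the neural crest, lay below the mean of 1 CPM that the named genes needed and was singled out after its values were seen. It had 4.31, 1.07 and 1.57 CPM in the Slc7a11-high libraries, and 2 counts over the 5 low libraries against 173 in the high ones. The ratio was 102, with a 95% counting interval of 27.7 to 847.

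The low libraries also differed by gRNA in genes that followed the split. Of the 750 genes called higher, the 2 low control gRNA libraries lay above the 3 low Pdx1 gRNA libraries in 130 (17.3%) and below them in 186 (24.8%), beside 13.1% and 15.4% of all genes tested. Of the 960 called lower, they lay above in 89 (9.27%) and below in 193 (20.1%). Slc7a11 itself was above, at 4.63 and 7.85 CPM against 0.155, 1.54 and 0.0754 CPM on TMM-scaled sizes.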
